A study of Mus musculus with 27 samples.

Results

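The response of macrophages lacking GRIP1 to interleukin 4 (IL4) was set against that of wild-type macrophages, gene by gene. The measure was the interaction, the log2 fold change of IL4 against vehicle in knockout cells less the same fold change in wild type, so a positive value means a more positive response in knockout cells. It took in every library of the 4 groups it is made of, 13 of the 27 libraries of the series. These were 3 libraries of knockout cells with IL4, 4 of knockout cells with vehicle, 3 of wild-type cells with IL4 and 3 of wild-type cells with vehicle. Knockout cells came from C57BL/6 mice labelled LysM-Cre+/+; GRIP1fl/fl, and wild-type cells from C57BL/6 mice labelled LysM-Cre+/+; GRIP1wt/wt. By these labels all 4 groups carry the Cre allele, although the titles name the wild type only as BL6. Cre is made from the lysozyme M (Lyz2) locus, which is active in granulocytes and monocytes as well as macrophages. Marrow of male mice 8 to 10 weeks old was grown into macrophages for 5 days in medium with 20% serum and 10% L-cell conditioned medium, and cells then received IL4 at 10 ng/ml for 24 h or vehicle. Messenger RNA was sequenced from bulk cultures. The labels do not say whether the libraries of a group came from separate animals, and the p-values therefore cover no more than library-to-library spread, part of which may be technical.

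GRIP1 is the protein of Ncoa2, a p160 coregulator that binds nuclear receptors such as the glucocorticoid receptor, and in macrophages also other transcription factors, and brings in enzymes that modify chromatin. IL4 binds a receptor that contains IL4Ra and signals through JAK kinases to STAT6, which enters the nucleus and switches on the genes of alternative activation. These include the arginine-degrading enzyme Arg1, the lectins Mrc1 and Mgl2, the secreted proteins Retnla and Chil3, and the factors Irf4, Pparg and Klf4, which act on later genes.

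Ncoa2 (mm10 chromosome 1, 13139105 to 13374083, minus strand) served as the check of genotype. It stood at 17.1, 20.3 and 26.004 CPM (the count scaled to library size) in knockout cells with IL4 and at 18.98, 16.1, 16.6 and 22.2 CPM in knockout cells with vehicle. In wild-type cells it stood at 59.01, 68.6 and 62.3 CPM with IL4 and at 55.7, 71.4 and 71.98 CPM with vehicle. The genotypes did not overlap, and every library matched its label. The transcripts left in knockout cells were counted over the whole gene, so they are not a measure of functional protein. Ncoa2 itself had an interaction of 0.26 ± 0.22 (log2, SE), with an adjusted p of 0.719 in edgeR's quasi-likelihood test. Its relatives Ncoa1 (0.19 ± 0.16) and Ncoa3 (0.08 ± 0.16) were also not called. Without knockout IL4 library 4 the values of Ncoa2, Ncoa1 and Ncoa3 were 0.08, 0.04 and 0.02.

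The 13 libraries held 24353968 to 48023102 counts in genes. The 8 macrophage markers summed to 5856 to 6469.6 CPM in knockout cells with IL4, 5718 to 6873 CPM in knockout cells with vehicle, 5481 to 5941 CPM in wild-type cells with IL4 and 5934 to 6647 CPM in wild-type cells with vehicle, with none at 0. The 10 stromal markers summed to 25.4 to 44.6 CPM in knockout cells with IL4 and 16.6 to 42.8 CPM with vehicle. In wild-type cells they summed to 229.6 to 912 CPM with IL4 and 277 to 1029 CPM with vehicle, and none was at 0. All 9 that were tested were lower in knockout cells with vehicle (10.3% of all genes) and with IL4 (6.59%). Of the 7 monocyte markers, none at 0, Chil3 is itself an IL4 gene and is left out of the sum. The other 6 summed to 10.5 to 14.6 CPM in knockout cells with IL4 and 9.46 to 14.98 CPM with vehicle, against 20.5 to 47.01 CPM in wild-type cells with IL4 and 29.4 to 86.3 CPM with vehicle. Of the 12 neutrophil markers, Retnlg was at 0 in both knockout groups and Ly6g in knockout cells with IL4. Mmp8, the highest, stood at 131 to 221 CPM in knockout cells with IL4 and 82.9 to 134 CPM with vehicle. In wild-type cells it stood at 84.3 to 112 CPM with IL4 and 58.5 to 81.7 CPM with vehicle. The other 11 summed to 67.7 to 98.5 CPM in knockout cells with IL4 and 44.8 to 60.9 CPM with vehicle, against 115 to 257 CPM and 123 to 387 CPM in wild-type cells. Of 9 tested, 6 were lower and 1 higher in knockout cells with vehicle (10.3% and 8.47% of all genes). With IL4, 5 were lower and 1 higher (6.59% and 5.76%). The part of stromal cells, monocytes and neutrophils in any genotype difference was not tested. In bulk RNA, fewer cells of a type and less RNA per cell cannot be told apart.

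Knockout IL4 library 4 had the lowest quality weight of the 13 (0.131 in limma's voom). Among knockout vehicle libraries, numbers 2 and 3 stood apart on the genes that answer to IL4. Over the 660 genes that were called at 2-fold or more higher with IL4 in wild type, the median log2 difference from the wild-type vehicle mean was 0.81 in knockout vehicle library 2 and 0.66 in library 3, but 0.17 in library 1 and 0.31 in library 4. Over the 477 genes at 2-fold or more lower with IL4, it was -0.87 and -0.75 in libraries 2 and 3, and -0.28 and -0.37 in libraries 1 and 4. With IL4, the knockout libraries lay at 1.54, 1.53 and 1.61 on the higher genes and at -1.51, -1.50 and -1.48 on the lower ones, whereas the wild-type libraries, whose values chose the genes, lay at 1.69, 1.62 and 1.53 and at -1.31, -1.44 and -1.39. The wild-type vehicle libraries themselves lay at 0.12, 0.00 and -0.12 on the higher genes and at -0.04, -0.02 and 0.07 on the lower ones, so knockout vehicle library 1 was close to wild-type vehicle library 1 on the higher genes. On the lower genes these 2 libraries were further apart, at -0.28 and -0.04. Dexamethasone libraries reached 0.35 in knockout cells (library 2) and 0.36 in wild-type cells (library 1) on the higher genes. On the lower genes these 2 libraries lay at -0.84 and -0.53, and the other dexamethasone libraries between -0.66 and -0.29. Whether IL4 or RNA of treated cells reached knockout vehicle libraries 2 and 3 was not tested. The interaction takes in the knockout vehicle mean, so its values are also given below without libraries 2 and 3.

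**Figure D1:**
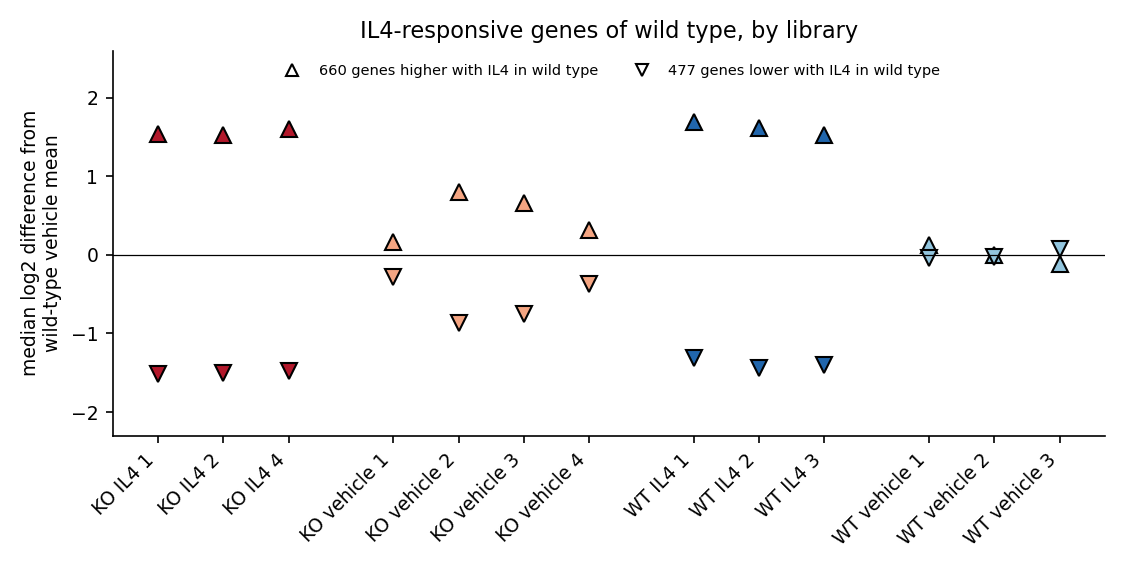
Median log2 difference from the wild-type vehicle mean (vertical axis) in each of the 13 libraries (horizontal axis), over the 660 genes at least 2-fold higher (upward triangles) and the 477 genes at least 2-fold lower (downward triangles) with IL4 in wild type. Knockout vehicle libraries 2 and 3 sit at 0.81 and 0.66 on the higher genes, and libraries 1 and 4 at 0.17 and 0.31.

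IL4 raised 2120 genes (14.5% of the 14589 tested) and lowered 1753 (12%) in knockout cells, and raised 2163 (14.8%) and lowered 2225 (15.3%) in wild-type cells. When library totals replaced TMM scaling the split was 1458 higher and 2578 lower in knockout cells and 1678 higher and 3134 lower in wild-type cells, so the balance of higher and lower genes rests on the scaling. With TMM, 2764 were called in both genotypes, which is 71.4% of the knockout calls and 63% of the wild-type calls, and 2762 of them had the same direction. Of the 1137 genes called at 2-fold or more in wild type, 1116 changed in the same direction in knockout cells and 855 were called there. Over the shared genes with 1 direction, the median size of the response was 0.52 in knockout cells and 0.64 in wild-type cells on the log2 scale, and 2093 (75.8%) were smaller in knockout cells. Leaving out knockout vehicle libraries 2 and 3, the medians were 0.61 in knockout cells and 0.65 in wild-type cells, and 1682 of 2896 (58.1%) were smaller in knockout cells.

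Against this shared response, 4 genes were called for the interaction itself (0.0274% of those tested), 3 negative and 1 positive. At an unadjusted p under 0.05 there were 1323 (9.07%), of which 675 were positive (4.63%) and 648 negative (4.44%). The precision differed between genes. The 95% interval of the interaction lay within 2-fold in either direction for 10677 genes (73.2%), but for only 266 (23.4%) of the 1137 genes that changed at least 2-fold in wild type; an interval can pass this bound through a large estimate as well as a wide error. When the replicate number within each genotype was kept as a block, 149 genes were called (1.02%), 57 positive and 92 negative. These 149 included the 4, and each had the same sign in the fit without the block. Both fits use the same libraries, so the shared sign is no separate evidence. The block fit without knockout vehicle libraries 2 and 3 called 40 genes, 34 of them among the 149. The count without the block also turned on single libraries. It was 95 without knockout vehicle library 1, 9 without wild-type IL4 library 1, 8 without knockout IL4 library 1, 2 without knockout IL4 library 4 or wild-type vehicle library 2, and 1 without knockout vehicle library 2. It was 0 without knockout IL4 library 2, knockout vehicle library 3, wild-type IL4 library 2 or wild-type vehicle libraries 1 or 3, while 1079 to 2234 genes had an unadjusted p under 0.05 in these edgeR fits.

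**Figure D2:**
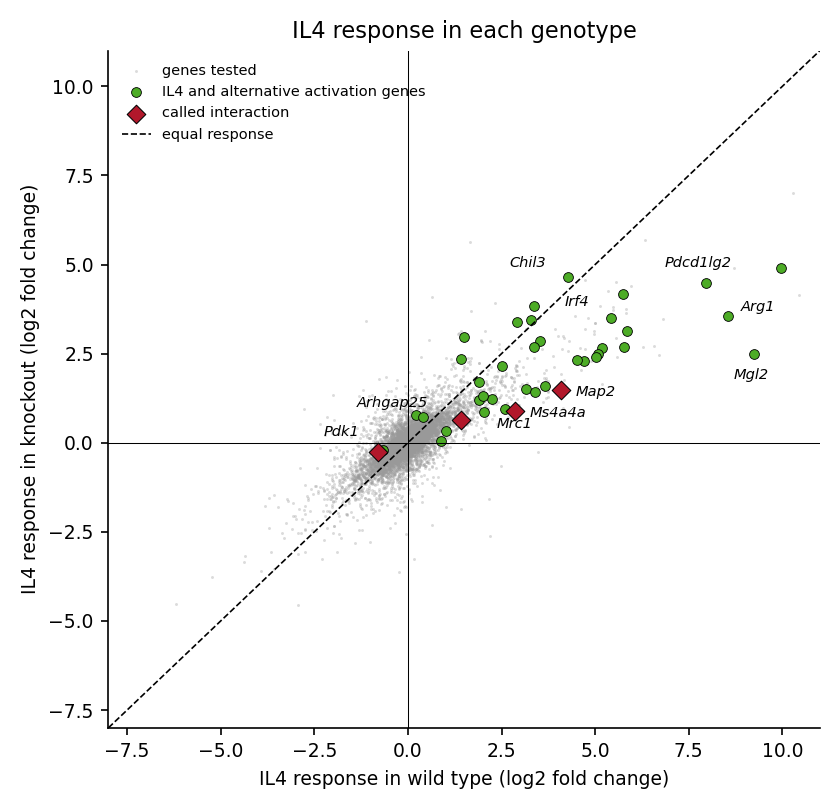
IL4 response in knockout cells (vertical axis) against that in wild-type cells (horizontal axis), both as log2 fold change against vehicle, for 14532 genes tested; 57 genes with 0 counts in all libraries of a group are left out. Green circles are the IL4 and alternative activation genes and red diamonds the 4 genes called for the interaction, and of the 1474 genes called higher in both genotypes 1134 had the smaller rise in knockout cells, below the dashed line of equal response.

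The 4 called genes were Ms4a4a, Map2, Arhgap25 and Pdk1. In all 4 the response was smaller in knockout cells, and in all 4 the knockout vehicle libraries lay outside the range of the wild-type vehicle libraries on the side of the IL4 level. The interaction that chose these genes holds the wild-type response and the knockout vehicle mean. Both patterns therefore describe the genes and are no separate evidence. The promoter windows of the 4 genes, 250 bases before to 50 after the gene start from RefSeq on GRCm38.p6, are printed. The factor that IL4 activates, STAT6, binds the palindrome of TTC, any 4 bases and GAA. The capitals in the Pdk1 window mark GCGTG, a core of the hypoxia response element bound by HIF factors, searched with ACGTG on both strands and chosen after the values were seen.
Ms4a4a promoter, chr19:11375238-11375537, plus strand: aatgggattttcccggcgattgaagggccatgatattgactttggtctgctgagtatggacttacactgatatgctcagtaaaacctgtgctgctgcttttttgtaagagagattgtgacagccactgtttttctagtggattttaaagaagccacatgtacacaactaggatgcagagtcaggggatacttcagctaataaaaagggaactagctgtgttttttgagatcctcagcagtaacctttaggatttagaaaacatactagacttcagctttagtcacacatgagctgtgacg
Map2 promoter, chr1:66175079-66175378, plus strand: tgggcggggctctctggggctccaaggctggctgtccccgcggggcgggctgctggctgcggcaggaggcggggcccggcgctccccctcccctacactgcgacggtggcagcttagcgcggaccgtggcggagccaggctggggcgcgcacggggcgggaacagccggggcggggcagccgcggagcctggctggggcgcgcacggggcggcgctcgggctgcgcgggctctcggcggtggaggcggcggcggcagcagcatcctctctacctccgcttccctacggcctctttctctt
Arhgap25 promoter, chr6:87533210-87533509, minus strand: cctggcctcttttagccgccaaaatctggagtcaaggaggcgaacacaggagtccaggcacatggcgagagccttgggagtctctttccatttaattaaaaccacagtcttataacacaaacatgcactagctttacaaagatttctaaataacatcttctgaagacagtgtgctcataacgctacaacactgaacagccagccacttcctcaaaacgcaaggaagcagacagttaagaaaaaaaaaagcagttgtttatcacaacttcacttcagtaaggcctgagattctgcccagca
Pdk1 promoter, chr2:71872974-71873273, plus strand: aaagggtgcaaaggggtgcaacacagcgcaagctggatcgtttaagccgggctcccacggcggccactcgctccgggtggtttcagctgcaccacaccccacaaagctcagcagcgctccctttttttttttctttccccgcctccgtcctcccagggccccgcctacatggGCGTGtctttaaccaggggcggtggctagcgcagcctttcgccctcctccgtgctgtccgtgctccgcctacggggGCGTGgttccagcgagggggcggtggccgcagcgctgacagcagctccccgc
None of the 4 windows holds this palindrome, which reads the same on both strands and is present in 6.95% of the 32851 promoter windows, and this says only that these letters are not in these windows. Pdk1's window holds GCGTG at 2 places, while 43.8% of all windows hold either hypoxia core on some strand.

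Ms4a4a (ENSMUSG00000101389, mm10 chromosome 19, 11375523 to 11392790, plus strand) encodes a membrane protein of the MS4A family, whose human member MS4A4A marks alternatively activated macrophages. It stood at 276, 318 and 252 CPM in knockout cells with IL4 and at 74.97, 226, 177 and 132 CPM in knockout cells with vehicle. In wild-type cells it stood at 174, 157 and 184 CPM with IL4 and at 26.1, 21.3 and 23.8 CPM with vehicle. IL4 and vehicle did not overlap in either genotype, and knockout cells were higher than wild-type cells in both conditions. The response was 0.89 ± 0.20 in knockout cells and 2.86 ± 0.24 in wild-type cells (log2, SE), an interaction of -1.97 ± 0.31 (edgeR adjusted p = 0.0252). It was -1.41 ± 0.21 without knockout vehicle libraries 2 and 3 (adjusted p = 0.00916). With corticosterone, Ms4a4a reached 333 to 395 CPM in knockout cells and 230.1 to 264 CPM in wild-type cells. MS4A genes are a cluster of related sequences, so reads could be split among them in counting.

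Map2 (ENSMUSG00000015222, mm10 chromosome 1, 66175273 to 66442583, plus strand), a microtubule-binding protein best known from neuronal dendrites, was a low-count gene here. It stood at 14.2, 8.99 and 15.3 CPM in knockout cells with IL4 and at 3.52, 5.08, 6.43 and 3.15 CPM in knockout cells with vehicle. In wild-type cells it stood at 8.93, 13.4 and 11.2 CPM with IL4 and at 0.438, 0.858 and 0.649 CPM with vehicle. The IL4 libraries of the genotypes overlapped and the vehicle libraries did not. The interaction was -2.60 ± 0.46 (edgeR adjusted p = 0.0362), and -2.14 ± 0.47 without knockout vehicle libraries 2 and 3 (adjusted p = 0.278).

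Arhgap25 (ENSMUSG00000030047, mm10 chromosome 6, 87458545 to 87533259, minus strand) encodes a GTPase-activating protein that turns off Rac in leukocytes. It stood at 238, 240.5 and 258 CPM in knockout cells with IL4 and at 119, 178, 178 and 152 CPM in knockout cells with vehicle. In wild-type cells it stood at 289, 299 and 277 CPM with IL4 and at 105, 117 and 101 CPM with vehicle. Knockout cells were thus lower with IL4 and higher with vehicle, with no overlap between the genotypes in either condition, although the genotype difference was called with vehicle (0.54 ± 0.09, adjusted p = 0.000215) and not with IL4 (-0.23 ± 0.10, adjusted p = 0.123). The interaction was -0.77 ± 0.13 (edgeR adjusted p = 0.0341), and -0.56 ± 0.11 without knockout vehicle libraries 2 and 3 (adjusted p = 0.108).

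Pdk1 (ENSMUSG00000006494, mm10 chromosome 2, 71873224 to 71903858, plus strand) encodes a kinase that blocks the entry of pyruvate into mitochondria by inhibiting pyruvate dehydrogenase. It stood at 55.6, 56.97 and 53.9 CPM in knockout cells with IL4 and at 69.2, 66.4, 68.7 and 63.7 CPM in knockout cells with vehicle. In wild-type cells it stood at 45.95, 47.99 and 56.2 CPM with IL4 and at 87.2, 84.2 and 91.96 CPM with vehicle. IL4 lowered it by less in knockout cells (-0.27 ± 0.06) than in wild-type cells (-0.81 ± 0.07), an interaction of 0.54 ± 0.09 (edgeR adjusted p = 0.0252). Unlike the other 3 genes, Pdk1 was nearly the same in the 4 knockout vehicle libraries, and the interaction without libraries 2 and 3 was 0.55 ± 0.10 (adjusted p = 0.1). None of the 4 genes was called in each of the 16 fits without the block that left out libraries. Ms4a4a was called in 8 of them, Pdk1 in 6, Arhgap25 in 5 and Map2 in 4, and their interactions kept their signs throughout, between -2.20 and -1.41 for Ms4a4a, -2.86 and -2.14 for Map2, -0.88 and -0.56 for Arhgap25, and 0.46 and 0.60 for Pdk1. All 4 were called with the replicate block, with adjusted p of 0.0135 for Ms4a4a and Map2, 0.00583 for Arhgap25 and 0.00125 for Pdk1. The block fit without knockout vehicle libraries 2 and 3 also called all 4. There the edgeR adjusted p was 0.00464 for Ms4a4a, 0.00758 for Map2 and Arhgap25, and 0.0038 for Pdk1.

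**Figure D3:**
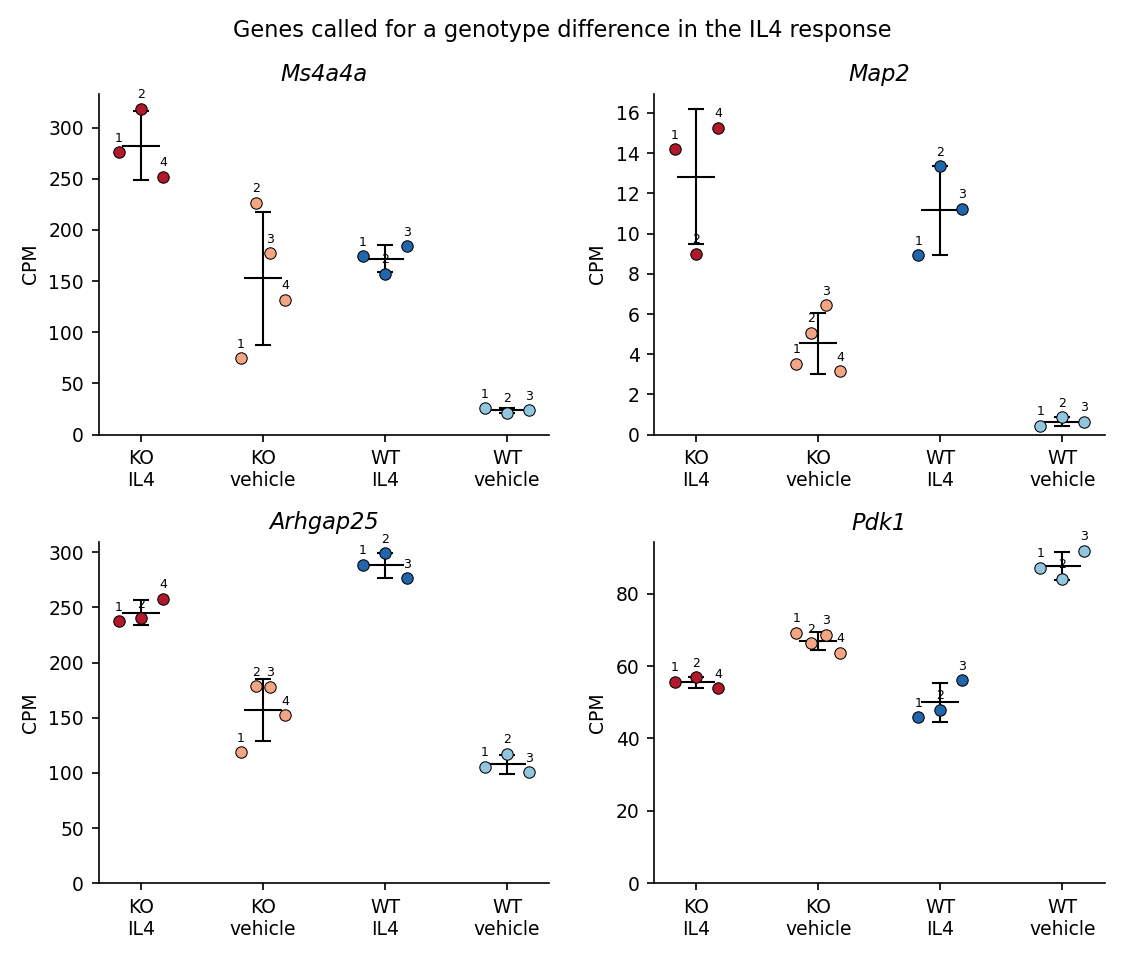
CPM (vertical axis) of the 4 genes called for the interaction in knockout (KO) cells with IL4 and vehicle and wild-type (WT) cells with IL4 and vehicle; points are libraries with their replicate number, bars the mean and lines the SD. With vehicle, knockout cells are above wild type for Ms4a4a, Map2 and Arhgap25 and below it for Pdk1, while the IL4 libraries lie closer together for Map2 and Pdk1.

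The genes next in order of p, chosen after their values were seen, were not called without the block but were called with it. Gbe1, the glycogen branching enzyme, stood at 25.5, 25.9 and 31.5 CPM in knockout cells with IL4 and 26.5, 27.4, 26.2 and 23.5 CPM with vehicle, against 38.5, 34.1 and 34.97 CPM in wild-type cells with IL4 and 54.9, 50.7 and 49.7 CPM with vehicle. IL4 lowered Gbe1 in wild-type cells (-0.53 ± 0.09) and had a value of 0.09 ± 0.08 in knockout cells, where it was already low with vehicle. Its interaction was 0.62 ± 0.12 (edgeR adjusted p = 0.0663, and 0.0135 with the block). Bnip3, a mitophagy receptor and hypoxia target, stood at 10.9, 13.01 and 14.3 CPM in knockout cells with IL4 and 17.2, 15.2, 15.5 and 17.3 CPM with vehicle, against 16.5, 12.97 and 14.9 CPM in wild-type cells with IL4 and 37.7, 29.97 and 29.9 CPM with vehicle. Its interaction was 0.78 ± 0.16 (adjusted p = 0.076, and 0.0115 with the block). In the block fit without knockout vehicle libraries 2 and 3 the adjusted p was 0.0267 for Gbe1 and 0.0604 for Bnip3. For Gbe1 and Bnip3, as for Pdk1, the genotypes lay further apart with vehicle than with IL4. The interaction is the genotype difference with IL4 less that with vehicle, so this restates its sign and is no separate evidence.

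Ccn3, a secreted matricellular protein, went the other way. It stood at 11.4, 9.82 and 17.3 CPM in knockout cells with IL4 and at 0.194, 0.287, 0.399 and 0.0935 CPM in knockout cells with vehicle, against 1.08, 0.531 and 0.346 CPM in wild-type cells with IL4 and 0.219, 0.153 and 0.239 CPM with vehicle. The high values were in the 3 knockout IL4 libraries. Its interaction was 3.97 ± 0.82 (edgeR adjusted p = 0.0921, and 0.018 with the block), and 4.83 ± 0.94 without knockout vehicle libraries 2 and 3. Kazald1, a secreted protein with an insulin-like growth factor binding domain, stood at 3.11, 3.01 and 1.74 CPM in knockout cells with IL4 and at 0.426, 2.21, 1.38 and 0.779 CPM with vehicle, against 7.77, 6.90 and 9.05 CPM in wild-type cells with IL4 and 0.839, 0.735 and 0.376 CPM with vehicle. The vehicle libraries of the genotypes overlapped and the IL4 libraries did not, and the interaction was -2.47 ± 0.51 (adjusted p = 0.0873, and 0.0135 with the block), or -1.50 without knockout vehicle libraries 2 and 3. The adhesion receptor Adgrl2 (0.75 ± 0.15) and the zinc and manganese transporter Slc39a8 (0.67 ± 0.13) had positive values, each with an adjusted p of 0.076, and were called with the block at 0.00583 and 0.0204. The block fit without knockout vehicle libraries 2 and 3 gave an adjusted p of 0.0115 for Ccn3, 0.197 for Kazald1, 0.0206 for Adgrl2 and 0.0833 for Slc39a8.

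Of the 149 genes called with the block, 81 were negative and rose with IL4 in wild type, and 45 were positive and fell there. Among these, 26 of the 81 and 38 of the 45 were not called for a response in knockout cells. Since the interaction holds the wild-type response, these counts describe the genes and are no separate evidence. Apart from Mylip and Tgm2, the genes named next were chosen after their values were seen. The smallest adjusted p, 0.00125, was shared by Pdk1 and Mylip, a ubiquitin ligase that degrades the LDL receptor, at 0.61 ± 0.08. It was followed by Rasgrp4, a Ras activator of myeloid cells, at 0.89 ± 0.12 (adjusted p = 0.00238). Rasgrp4 stood at 12.003, 13.7 and 12.8 CPM in knockout cells with IL4 and 14.7, 14.99, 15.1 and 15.96 CPM with vehicle, against 5.68, 6.07 and 8.81 CPM in wild-type cells with IL4 and 14.003, 12.8 and 17.8 CPM with vehicle. The wild-type IL4 libraries were the low ones and the vehicle libraries of the genotypes overlapped. Tgm2, a transglutaminase and marker of alternative activation, rose with IL4 in wild type (0.89 ± 0.15) and had a value of 0.06 ± 0.14 in knockout cells. It stood at 538, 517 and 494 CPM in knockout cells with IL4 and 457, 475, 524 and 526 CPM with vehicle, against 844, 729.8 and 634 CPM in wild-type cells with IL4 and 429, 406 and 358 CPM with vehicle. Its interaction was -0.84 ± 0.14 with the block (edgeR adjusted p = 0.00941) and -0.83 ± 0.21 without it (adjusted p = 0.191). Postn, which is also a stromal marker, was called with the block at 2.33 ± 0.31 (adjusted p = 0.00238). It stood at 7.41 to 11.6 CPM in knockout cells with IL4 and 0.997 to 2.33 CPM with vehicle, against 23.1 to 58.7 CPM in wild-type cells with IL4 and 18.9 to 45.9 CPM with vehicle, and the summed stromal markers differ between the genotypes as given above.

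The 38 IL4 and alternative activation genes answered in both genotypes. IL4 raised 34 of them in knockout cells (14.5% of all genes) and 35 in wild-type cells (14.8%) and lowered none in either. The median responses were 2.45 in knockout cells and 3.379 in wild-type cells (log2). None was called for the interaction, and 1, Tgm2, was called with the block. At an unadjusted p under 0.05, 21 were negative and none positive, where the share of all genes was 4.44% negative and 4.63% positive. Their median interaction was -1.36, against 0.01 over all genes. In the fit without knockout vehicle libraries 2 and 3 the counts became 6 negative and 5 positive, where all genes gave 2.25% and 2.63%, and the median became -0.54, against 0.02 over all genes. With vehicle, knockout vehicle libraries 2 and 3 included, 17 of the 38 were higher and 2 lower in knockout cells than in wild-type cells (8.47% and 10.3% of all genes). With IL4 none was higher and 4 were lower (5.76% and 6.59% of all genes).

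Arg1 shows how far the knockout vehicle libraries weighed. It stood at 571, 742 and 491 CPM in knockout cells with IL4 and at 2.63, 117, 78.4 and 4.27 CPM in knockout cells with vehicle, against 877, 787 and 947 CPM in wild-type cells with IL4 and 3.83, 1.38 and 1.88 CPM with vehicle. Vehicle libraries 2 and 3 of the knockout were the high ones, and knockout IL4 libraries lay below each wild-type IL4 library. The interaction was -4.98 ± 1.97 (edgeR adjusted p = 0.443), and -1.13 ± 2.05 without those libraries. Mrc1, the mannose receptor, stood at 2564, 2878 and 2666 CPM in knockout cells with IL4 and at 1058, 1933, 1655 and 1247 CPM in knockout cells with vehicle, against 2207, 2342 and 2312 CPM in wild-type cells with IL4 and 507, 586 and 589 CPM with vehicle. All 4 knockout vehicle libraries exceeded the wild-type ones, and the interaction was -1.15 ± 0.28 (adjusted p = 0.178), or -0.80 ± 0.27 without libraries 2 and 3 (adjusted p = 0.955). Mgl2 stood at 95.9, 119 and 82.9 CPM in knockout cells with IL4 and at 1.86, 36.5, 27.8 and 3.71 CPM with vehicle. In wild-type cells it stood at 126, 82.5 and 107 CPM with IL4 and at 0.0729, 0.245 and 0.171 CPM with vehicle. Knockout vehicle libraries 1 and 4 thus also lay above the wild-type ones for Mgl2. Retnla was at 0 counts in the 3 wild-type vehicle libraries and in knockout vehicle libraries 1 and 4, and at 6.06 and 1.42 CPM in knockout vehicle libraries 2 and 3. With IL4 it reached 209, 210.1 and 243 CPM in knockout cells and 113, 205 and 247 CPM in wild-type cells, which overlap, and no fold is given against the group at 0.

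Among the factors of the IL4 programme, Irf4 had an interaction of -1.92 ± 0.52, Klf4 one of -1.20 ± 0.42 and Pparg one of -0.51 ± 0.27, with edgeR adjusted p of 0.222, 0.37 and 0.574. Without knockout vehicle libraries 2 and 3 these were -0.68 ± 0.34, -0.30 ± 0.27 and -0.25 ± 0.28. Irf4 stood at 38.01, 30.7 and 45.6 CPM in knockout cells with IL4 and 1.16, 6.10, 4.55 and 1.65 CPM with vehicle, against 32.4, 36.8 and 45.3 CPM in wild-type cells with IL4 and 1.02, 0.613 and 1.06 CPM with vehicle. The IL4 libraries overlapped between the genotypes. Chil3, a chitinase-like secreted protein, stood at 552, 571 and 579 CPM in knockout cells with IL4 and 4.61, 51.8, 27.9 and 7.23 CPM with vehicle, against 1095, 962 and 845 CPM in wild-type cells with IL4 and 94.9, 33.5 and 21.1 CPM with vehicle. Its interaction was 0.36 ± 0.93 (adjusted p = 0.922), and 2.29 ± 0.91 without libraries 2 and 3 (adjusted p = 0.955). With wild-type vehicle library 1 left out it was -0.51. The chemokine Ccl24 had -2.70 ± 0.69 with those libraries and -2.56 without them, at levels of 2.27 to 3.32 CPM in knockout cells with IL4 and 4.42 to 7.37 CPM in wild-type cells with IL4.

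Il4ra, the chain that binds IL4, had an interaction of 0.14 ± 0.13, with an interval of -0.13 to 0.41, and Stat6 had 0.13 ± 0.08, with an interval of -0.04 to 0.30. Neither was called, and both intervals lie within 2-fold. Of the 19 genes of the receptor and STAT6 signalling list, 2 were positive and 2 negative at an unadjusted p under 0.05 (4.63% and 4.44% of all genes). The median was 0.06. The negative ones were the feedback inhibitors Socs1 (-2.62 ± 1.03) and Cish (-1.56 ± 0.68), which moved to -0.55 and -0.16 without knockout vehicle libraries 2 and 3, and to -1.16 and -0.82 without library 2 alone. The positive ones were the phosphatase Ptpn6 (0.51 ± 0.13) and the repressor Bcl6 (0.45), whose value was 0.21 without knockout IL4 library 4. Ptpn6 was called with the block (edgeR adjusted p = 0.0135) and in the block fit without knockout vehicle libraries 2 and 3 (0.0338).

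**Figure D4:**
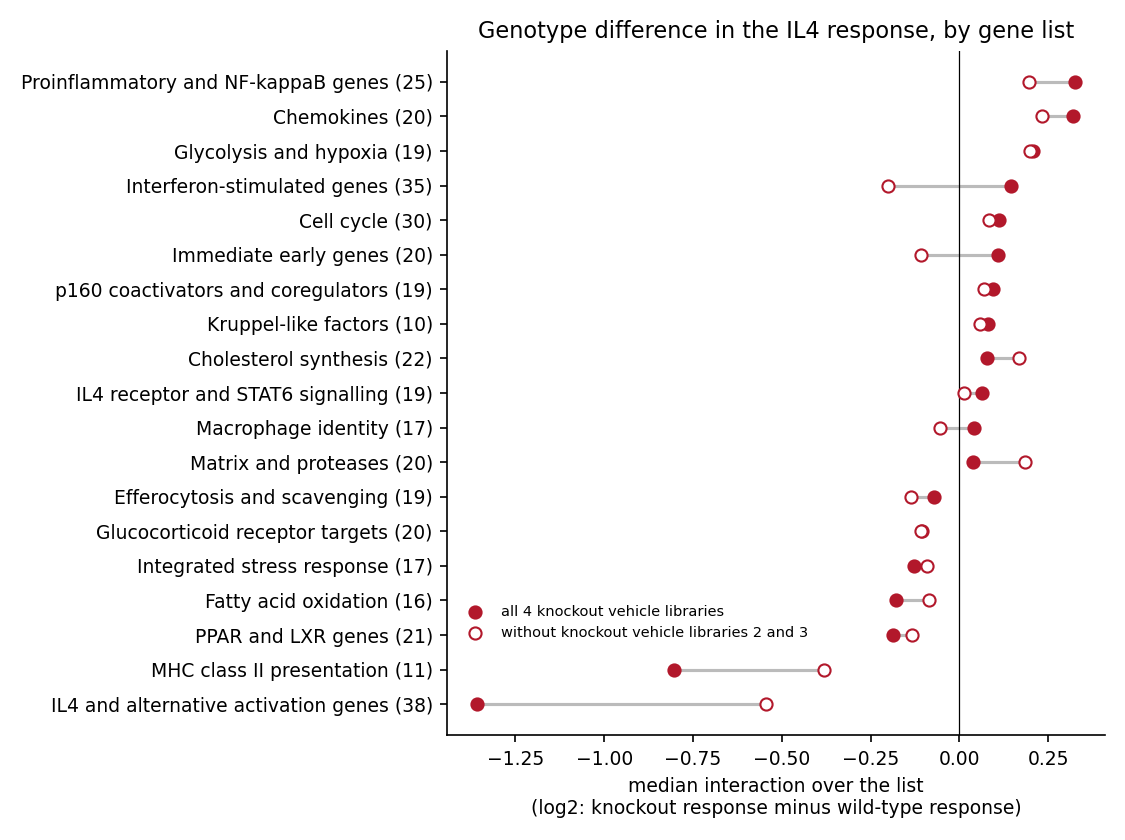
Median interaction (horizontal axis, log2) over the tested members of each of 19 gene lists (rows, number tested in brackets), with all knockout vehicle libraries (filled) and without knockout vehicle libraries 2 and 3 (open). The IL4 and alternative activation list lies at -1.36 and -0.54 and the glycolysis and hypoxia list lies at 0.21 and 0.20.

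Most transcripts of MHC class II presentation rose with IL4 in both genotypes. Of the 11 genes tested, 8 were called higher and 1 lower in knockout cells (14.5% and 12% of all genes). In wild-type cells 9 were called higher and 1 lower (14.8% and 15.3% of all genes). The interaction was negative at an unadjusted p under 0.05 for 7 of the 11 (4.44% of all genes) and positive for none, with a median of -0.80. Without knockout vehicle libraries 2 and 3, 5 were negative (2.25% of all genes) and the median was -0.38. With vehicle, 8 of the 11 were higher in knockout cells than in wild-type cells (8.47% of all genes), and with IL4 none was called. Ciita, the master transactivator of these genes, stood at 26.8, 17.7 and 18.3 CPM in knockout cells with IL4 and 2.83, 3.77, 4.85 and 4.80 CPM with vehicle, against 12.4, 17.3 and 17.2 CPM in wild-type cells with IL4 and 0.547, 0.521 and 0.991 CPM with vehicle. All 4 knockout vehicle libraries lay above the wild-type ones. Its interaction was -2.16 ± 0.41 (edgeR adjusted p = 0.0663), -2.06 ± 0.46 without knockout vehicle libraries 2 and 3, and called with the block (adjusted p = 0.0135). H2-Eb1 (-1.53 ± 0.38), H2-Ab1 (-1.12 ± 0.31) and H2-Aa (-0.86 ± 0.36), chains of the MHC class II molecules themselves, were also called with the block, at adjusted p of 0.0273, 0.0316 and 0.0402. These 3 calls were lost in the block fit without knockout vehicle libraries 2 and 3, at adjusted p of 0.118, 0.124 and 0.16, and that of Ciita was 0.0251. These genes share sequence, and their counts are uncertain to that degree. Of the 9 dendritic cell markers of the check list, the integrin Itgax, which macrophages also express, gave most of the sum and rose with IL4 in both genotypes. The other 8 summed to 23.04 to 35.1 CPM in knockout cells with IL4, with Xcr1 at 0, and 3.12 to 9.38 CPM with vehicle, against 31.2 to 37.05 CPM in wild-type cells with IL4, with Siglech at 0, and 6.74 to 12.4 CPM with vehicle. The part of such cells in the difference was not tested.

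Of 19 glycolysis and hypoxia genes tested, 6 were positive and none negative at an unadjusted p under 0.05 (4.63% and 4.44% of all genes). The same counts were found without knockout vehicle libraries 2 and 3 (2.63% and 2.25% of all genes), with medians of 0.21 and 0.20. IL4 raised 4 and lowered 4 in knockout cells (14.5% and 12% of all genes) and raised 1 and lowered 7 in wild-type cells (14.8% and 15.3%). With vehicle, 16 of the 19 were lower in knockout cells than in wild-type cells (10.3% of all genes) and none was higher, and with IL4 7 were lower (6.59% of all genes). Besides Pdk1 and Bnip3, the glucose transporter Slc2a1 was called with the block (adjusted p = 0.00583). Slc2a1 was also called in the block fit without knockout vehicle libraries 2 and 3 (edgeR adjusted p = 0.0038). It stood at 90.7, 106 and 91.8 CPM in knockout cells with IL4 and 67.5, 84.6, 80.2 and 63.2 CPM with vehicle, against 139.99, 128 and 114 CPM in wild-type cells with IL4 and 159, 128 and 124 CPM with vehicle. Its response was 0.38 ± 0.11 in knockout cells (called) and -0.10 ± 0.12 in wild-type cells (not called). The hexokinase Hk1 had an interaction of 0.21 ± 0.07 (edgeR adjusted p = 0.304), or 0.12 without knockout IL4 library 2.

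**Figure D5:**
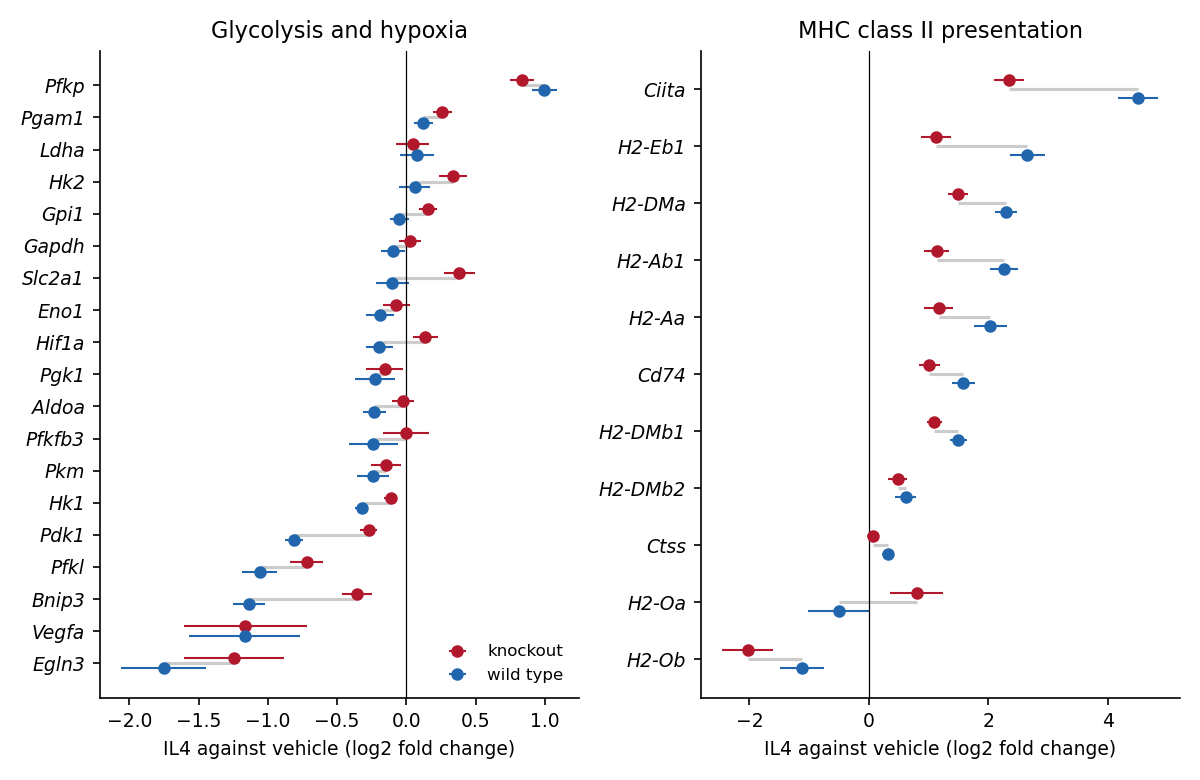
IL4 response (horizontal axis, log2 fold change against vehicle, with SE) of each glycolysis and hypoxia gene (left) and each MHC class II gene (right) in knockout cells (red) and wild-type cells (blue). Pdk1, Bnip3 and Slc2a1 lie to the right in knockout cells, and Ciita, H2-Eb1 and H2-Ab1 lie to the left.

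Of 16 fatty acid oxidation genes, 6 rose in knockout cells (14.5% of all genes) and 12 in wild-type cells (14.8%). At an unadjusted p under 0.05, 7 had a negative and 1 a positive interaction (4.44% and 4.63% of all genes), and the median was -0.18. This became 3 negative and 1 positive without knockout vehicle libraries 2 and 3 (2.25% and 2.63% of all genes). Echs1 (-0.48 ± 0.14) and Acadl (-0.23 ± 0.08), enzymes of beta oxidation, had the smallest p of the list, and Etfb (-0.62 ± 0.21), an electron carrier for it, was called with the block (adjusted p = 0.0421) but not in the block fit without knockout vehicle libraries 2 and 3 (0.23). Without knockout IL4 library 4 its interaction was -0.39, and without knockout vehicle libraries 2 and 3 that of Echs1 was -0.32. Among 21 PPAR and LXR genes, 5 were negative and 1 positive at an unadjusted p under 0.05 (4.44% and 4.63% of all genes). Without knockout vehicle libraries 2 and 3 there were 2 and 1 (2.25% and 2.63% of all genes). The block called 3 of them (1.02% of all genes). These were Mylip, the fatty acid carrier Fabp4 and the cholesterol exporter Abcg1. Fabp4 stood at 51.5, 65.1 and 50.02 CPM in knockout cells with IL4 and 41.2, 64.4, 43.97 and 50.1 CPM with vehicle, against 129, 121 and 96.2 CPM in wild-type cells with IL4 and 73.6, 62.2 and 37.5 CPM with vehicle. The vehicle libraries overlapped and the IL4 libraries did not, and the interaction was -0.84 ± 0.28 (edgeR adjusted p = 0.318, and 0.0252 with the block). In the block fit without knockout vehicle libraries 2 and 3 the adjusted p was 0.0833 for Fabp4 and 0.194 for Abcg1. Of 22 cholesterol synthesis genes, 14 rose in knockout cells (14.5% of all genes) and 11 in wild-type cells (14.8%). For the interaction 1 was positive and 1 negative at an unadjusted p under 0.05, near the shares of all genes. This became 5 positive and none negative without those libraries, where 2.63% of all genes were positive.

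Of 25 proinflammatory and NF-kappaB genes, 9 fell in knockout cells (12% of all genes) and 15 in wild-type cells (15.3%). At an unadjusted p under 0.05, 6 were positive (4.63% of all genes) and none negative, with a median of 0.33. Without knockout vehicle libraries 2 and 3, 2 were positive (2.63% of all genes) and the median was 0.20. Tnf stood at 31.3, 35.4 and 45.7 CPM in knockout cells with IL4 and 105, 57.7, 61.5 and 86.1 CPM with vehicle, against 37.7, 29.9 and 24.2 CPM in wild-type cells with IL4 and 135, 127 and 114 CPM with vehicle. Its interaction was 0.99 ± 0.27 (edgeR adjusted p = 0.223), and 0.69 ± 0.25 without libraries 2 and 3. The inflammasome sensor Nlrp3 had 0.62 ± 0.19 and the lipoprotein receptor Tlr2 1.01 ± 0.42, or 0.45 and 0.51 without libraries 2 and 3. The costimulatory protein Cd86 (0.78 ± 0.27) was called with the block (adjusted p = 0.0379) but not in the block fit without knockout vehicle libraries 2 and 3 (0.181), and its interaction was 0.48 without knockout IL4 library 4. Interferon-stimulated genes changed the sign of their median, 0.15 with all libraries and -0.20 without libraries 2 and 3, and of 35 tested 1 passed an unadjusted p of 0.05 with all libraries. Cxcl10 was that gene, with an interaction of 1.68. Of 20 chemokines, 3 were positive and 1 negative (4.63% and 4.44% of all genes). Without libraries 2 and 3 there were 2 and 1 (2.63% and 2.25% of all genes).

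Among the genes that fell most in wild type, Cx3cr1, the fractalkine receptor, stood at 6.02, 5.94 and 6.89 CPM in knockout cells with IL4 and 239, 49.9, 105 and 184 CPM with vehicle, against 1.76, 2.69 and 3.801 CPM in wild-type cells with IL4 and 134, 226 and 250.3 CPM with vehicle. It fell by 4.52 on the log2 scale in knockout cells and fell by 6.19 in wild-type cells, with an interaction of 1.67 ± 0.88 (edgeR adjusted p = 0.571). The formyl peptide receptor Fpr1 fell by 3.35 in knockout cells and fell by 4.37 in wild-type cells. The NF-kappaB cofactor Nfkbiz fell by 2.53 in knockout cells and fell by 3.37 in wild-type cells. The interactions of Fpr1 and Nfkbiz were 1.02 and 0.84, and 0.33 and 0.32 without knockout vehicle libraries 2 and 3, while that of Cx3cr1 was 1.12 without them. Cell cycle genes fell in both genotypes, 22 of 30 in knockout cells (12% of all genes) and 27 in wild-type cells (15.3%). None of the 30 passed an unadjusted p of 0.05 for the interaction.

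In the remaining lists 0 to 3 genes in a direction passed an unadjusted p of 0.05 for the interaction, where 4.63% of all genes were positive and 4.44% negative. Without knockout vehicle libraries 2 and 3 each of these lists had 0 or 1 gene in a direction, where all genes gave 2.63% and 2.25%. The counts that follow are with all libraries. Of 19 p160 coactivators and coregulators, 1 (the corepressor Ncor1, 0.38, or 0.19 without knockout IL4 library 4) was positive, and of 10 Kruppel-like factors 1 (Klf4) was negative. Of 20 glucocorticoid receptor targets 2 were negative, Ms4a4a (-1.97) and Tsc22d3, a leucine zipper protein with an interaction of -0.38. Of 20 immediate early genes 1 was negative, of 17 integrated stress response genes 1 was positive, of 19 efferocytosis genes 3 were negative, and of 20 matrix and protease genes 1 was positive and 2 were negative. Of 17 macrophage identity genes 1 was positive and 1 negative. The receptor gene Nr3c1 itself had 0.19 ± 0.14 and its target Fkbp5 -0.11 ± 0.13.

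Knockout and wild-type cells were also compared within each condition. Knockout cells had 1236 genes higher (8.47%) and 1502 lower (10.3%) with vehicle, and in 840 higher (5.76%) and 962 lower (6.59%) with IL4. Of these 1139 were called in both conditions, 63.2% of the calls with IL4 and 41.6% of those with vehicle, and 1138 had the same direction. The order of the counts depended on knockout vehicle libraries 2 and 3, without which 1872 genes differed with IL4 and 1521 with vehicle. With library totals in place of TMM, 561 were higher and 990 lower with IL4. The count with IL4 was 638 without wild-type IL4 library 1, 1015 without knockout IL4 library 4 and 4206 with the replicate block, and the count with vehicle was 1809 without wild-type vehicle library 1.

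When corticosterone groups took the place of the vehicle groups, with the same IL4 libraries, 4 genes were called (0.0274%), all positive and none of them among the 4 called against vehicle. They were Gbe1 (0.87), the glutaredoxin Glrx (0.82), Lancl3 (1.63) and the phosphoglucomutase-like gene Pgm2l1 (0.54). Gbe1 stood at 25.95 to 29.2 CPM with corticosterone in knockout cells and at 60.03 to 66.7 CPM in wild-type cells. Against corticosterone, Ms4a4a had 0.13, Map2 0.04, Arhgap25 -0.23 and Pdk1 0.37, with adjusted p of 0.932, 0.995, 0.751 and 0.322. The IL4 libraries are the same as in the comparison with vehicle, so these values are set side by side and not counted as a repeat. This contrast equals the genotype difference in the IL4 response less that in the corticosterone response. Its values therefore hold the corticosterone response too and are not of IL4 alone. The replicate block called 95 genes here, and 1 was called without knockout IL4 library 4 or any single wild-type IL4 library.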

How the data were processed

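The authors deposited 1 raw read count for each gene in each of 27 libraries. Per the submitters' processing notes, fastp 0.23.2, STAR 2.7.0, featureCounts and edgeR 3.38.4 were used with the build mm10. Per the labels, poly(A) RNA was sequenced as 50 bp pairs on a NovaSeq after a directional NEBNext Ultra II preparation. How the counting used strand is not given here in any source, so overlapping and antisense genes are less certain.

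Of 29872 genes, 14589 passed filterByExpr (minimum count 10). Counts were scaled by TMM and fitted with edgeR 4.0.16 (R 4.3.3, limma 3.58.1, legacy quasi-likelihood, robust) with a mean for each of 8 groups over all 27 libraries, which share 1 estimate of spread. The interaction and its parts were tested with the quasi-likelihood F test, adjusted by Benjamini-Hochberg over all genes and called at 0.05. CPM is each count scaled by the TMM-adjusted library size, positions come from GENCODE vM21, and the fit was tested on simulated data. Totals of 24353968 to 48023102 counts per library set the counting error. No pair of replicates held identical values.

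The members and gene lists were chosen with earlier results of these data known. Genes named were those called with at least 5 CPM, up to 4 of each list by interaction p, a set of regulators, and the largest wild-type changes. Others are said to be chosen after their values were seen. Same-numbered libraries of a genotype deviated from their group means together, with correlations between IL4 and vehicle of 0.115, 0.280 and 0.120 in knockout and 0.713, 0.279 and 0.612 in wild type, each over 0.1, so the block fit is given beside results. Each was higher than any correlation with a library of another number. The highest of those were 0.052, -0.139 and 0.028 in knockout and -0.352, 0.128 and 0.211 in wild type. What libraries of 1 number have in common is not stated in the labels. Alternatives were other scalings (RLE, totals only), filters, DESeq2 1.42.0, edgeR's newer quasi-likelihood, voom with quality weights, the 13 libraries alone, the block, and fits that left out libraries.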

Additional observations from a re-analysis of the deposited data

Results flagged for a closer look

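The response to IL4 differed between the genotypes by the test of the difference itself for 4 genes, with interactions (knockout minus wild type, log2) of -1.97 for Ms4a4a, -2.60 for Map2, -0.77 for Arhgap25 and 0.54 for Pdk1. With corticosterone in place of vehicle, another 4 genes were called, Gbe1 (0.87), Lancl3 (1.63), Glrx (0.82) and Pgm2l1 (0.54). These values are the genotype difference in the IL4 response less that in the corticosterone response, and so are not of IL4 alone.

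Among the 4 knockout vehicle libraries, library 2 lay far from the others for 3 of the genes named. Socs1 stood at 57.4 CPM there, against 3.91 to 10.96 CPM in the other 3, and Ncoa3 stood at 196 CPM, against 246 to 254 CPM. Bcl6 stood at 67.6 CPM there, against 85.98 to 89.8 CPM. Chance flags about 1 in 20 such groups, and many genes were looked at. Over the genes that answer to IL4 as a set, libraries 2 and 3 both stood apart, as given above.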

How the results depend on the processing

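The count of genes called for the interaction, 4, was 8 without a filter on low counts, 7 with edgeR's newer quasi-likelihood test, 78 with DESeq2, 20 with voom and quality weights, 149 with the replicate block, and 0 with only the 13 libraries, a fit with fewer libraries to estimate the spread, where 884 genes had an unadjusted p under 0.05 and DESeq2 was not run. It was 2 without knockout vehicle libraries 2 and 3, 2 without 4 libraries with raised Arg1 outside IL4 (knockout vehicle 2 and 3, knockout dexamethasone 2 and wild-type dexamethasone 1), 0 without wild-type libraries numbered 1, with 1311 at an unadjusted p under 0.05, and 40 in the block fit without knockout vehicle libraries 2 and 3, an alternative chosen after seeing the data. Knockout dexamethasone library 4 was not among the 4 left out. Its Arg1 was 12.2 CPM, against 0.277 and 0.82 CPM in knockout dexamethasone libraries 1 and 3. Leaving out 1 library gave 0 to 95, with 95 without knockout vehicle library 1 and 0 without knockout IL4 library 2, knockout vehicle library 3, wild-type IL4 library 2 or wild-type vehicle libraries 1 or 3. RLE scaling, totals only and a minimum count of 50 each called the same 4 genes. Knockout against wild type with vehicle, 2738 genes, was 1521 without knockout vehicle libraries 2 and 3, 1680 without the 4 libraries with raised Arg1 listed above, and 1809 to 3208 with 1 library left out. With IL4, 1802 genes, it was 906 with the 13 libraries alone, 4206 with the replicate block, 4285 with the block and without knockout vehicle libraries 2 and 3, 1016 without wild-type libraries numbered 1, and 638 to 1951 with 1 library left out. The interaction against corticosterone, 4 genes, was 19 with DESeq2, 30 with voom, 95 with the block, 111 with the block and without knockout vehicle libraries 2 and 3, 1 without wild-type libraries numbered 1, and 1 to 6 with 1 library left out; the 13 libraries alone hold no corticosterone. The IL4 responses kept within 1.5 times of their counts, and with 1 library left out knockout cells gave 2767 to 3995 genes and wild-type cells 3493 to 4966. The block moved no other count by over 1.5 times. The cause of these moves was not tested. Over 86 genes tried, no called value changed sign. The median half-width of the 95% interval of the interaction was 0.35 (log2) over all genes and 0.88 over those called at 2-fold or more in wild type.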
